A study of Rattus norvegicus with 4 samples.

Results

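Genes that make or break down the sphingolipids of myelin were followed in RNA-seq counts of cultured rat Schwann cells (SCs). They were taken by name as 10 rows of a table of 17949 genes, and all 10 passed the filter on low counts. Of these, 7 encode steps of synthesis (Ugt8, Gal3st1, Fa2h, Cers2, Sptlc2, Degs1 and Sgms1) and 3 encode steps of breakdown (Galc, Arsa and Psap). The question was whether their levels differ between SCs that express the Egr2 promoter antisense RNA (Egr2-AS) and control SCs.

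The cells were primary SCs from rat sciatic nerve, kept in 10% FBS with 4 µM forskolin and 5 ng/ml heregulin-β1, and RNA was taken 48 h after lentiviral infection. The Lenti-AS group (n = 2) received a virus that expresses the Egr2-AS from a vector with a red fluorescent reporter, and the Lenti-GFP group (n = 2) received a backbone virus that carries GFP, so the reporter differs together with the Egr2-AS and the effects of the 2 cannot be told apart. The strain, age and sex of the animals are not given in the sources used here. The samples are labelled as biological replicates, but nothing says that they came from separate animals, so the p-values measure only the spread between these samples.

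Sphingolipids are built on ceramide, which is a sphingoid base joined to a fatty acid. In myelinating glia much of the ceramide carries a very long and often hydroxylated fatty acid and is turned into galactosylceramide and its sulfated form, sulfatide, which are abundant in myelin, while another branch makes sphingomyelin. Lysosomal enzymes and their small activator proteins, the saposins, take these lipids apart again. Inherited loss of galactosylceramidase causes Krabbe disease and loss of arylsulfatase A causes metachromatic leukodystrophy, both of which damage the myelin of peripheral nerve.

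No gene of the 10 was called higher or lower in Lenti-AS, at an adjusted p under 0.05 and a fold change of at least 1.3 in edgeR's quasi-likelihood test. Among all 12446 genes tested, 1.98% were called, 1.31% higher and 0.667% lower. At an unadjusted p under 0.05, 2 of the 10 genes passed, Cers2 and Degs1, both higher in Lenti-AS, where the share over all genes tested was 21.8%, made up of 12.5% higher and 9.37% lower. The groups did not overlap for 5 of the 10 genes, 3 higher and 2 lower in Lenti-AS, which was so for 54.9% of all genes, 27.7% higher and 27.2% lower. The median log2 fold change was 0.043 over the 10 genes and 0.0071 over all genes tested. For 8 of the 10 genes the 95% interval of the fitted change lay inside a 1.3-fold difference in either direction, and the exceptions were Fa2h and Cers2. The same held for 44.4% of all genes tested, many of which have fewer counts than these.

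Total counts per library were between 74024323 and 96185890, and values are given as CPM, the counts scaled to a common library size. CPM is not divided by gene length, so levels are compared between libraries and not between genes. Both Lenti-AS libraries stood apart in some genes. Among the 10251 genes whose mean reached 1 CPM, a gap of over 2-fold separated the Lenti-AS libraries for 181 genes, 158 of them higher in Lenti-AS 1, and the Lenti-GFP libraries for 8. Red cell genes summed to 3002 CPM in Lenti-AS 2 and to between 4.15 and 7.37 CPM in the other libraries. The sum in Lenti-AS 2 came from globin genes, such as Hbb with 1668 CPM. The red cell markers that are not globins stayed low. In Lenti-AS 2, Alas2 had 0.851 CPM and Slc4a1 0.133 CPM. In the other libraries they had 0.461 to 0.812 CPM and 0.103 to 0.222 CPM. Of the 9 SC markers counted, 8 lay above 1 CPM, with S100b between 2027 and 2358 CPM, while Gap43 lay between 0.0228 and 0.264 CPM. In bulk RNA, fewer cells of a type and less RNA per cell cannot be told apart. Egr2 itself had 49.2 and 42.1 CPM in Lenti-GFP and 61.2 and 54.0 CPM in Lenti-AS. Its log2 fold change was 0.33 ± 0.11 (SE), with an adjusted p = 0.152 from edgeR and 0.0336 from DESeq2, at less than 1.3-fold in both. No row is given to the Egr2-AS, so its level could not be checked against the labels. Without a stated strand setting, reads of Egr2 and of any antisense RNA over its exons cannot be told apart. The study places the Egr2-AS at the Egr2 promoter, and whether it overlaps the counted exons was not tested.

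**Figure D1:**
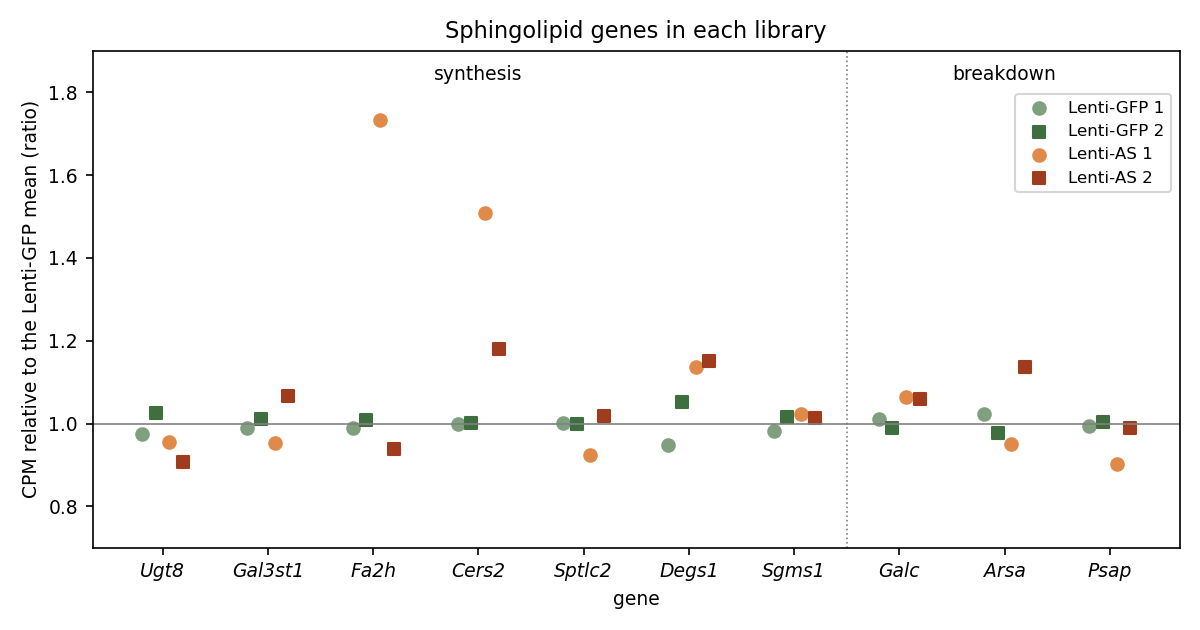
CPM of each of the 10 genes divided by its mean in the 2 Lenti-GFP libraries (linear axis). Circles are replicate 1 and squares replicate 2, green for Lenti-GFP and orange or brown for Lenti-AS. Fa2h and Cers2 stand highest in Lenti-AS 1, and Cers2 and Degs1 are above both Lenti-GFP libraries in both Lenti-AS libraries.

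Sptlc2 and Degs1 act at the start and at the end of ceramide synthesis, and neither passed the adjusted threshold. Sptlc2 encodes the catalytic subunit of serine palmitoyltransferase, which starts sphingoid base synthesis. It had 132 and 131 CPM in the Lenti-GFP libraries and 122 and 134 CPM in the Lenti-AS libraries. The Lenti-AS values lay on either side of both Lenti-GFP values, and the fitted fold change was 0.972 with an interval from 0.870 to 1.09 (adjusted p = 0.747 from edgeR). Degs1 encodes the desaturase that turns dihydroceramide into ceramide. Its levels were 140 and 156 CPM in Lenti-GFP and 168 and 170 CPM in Lenti-AS. Both Lenti-AS libraries were higher, with 12.4 CPM between the nearest libraries of the groups, while the Lenti-GFP libraries themselves were 15.5 CPM apart. The log2 fold change was 0.19 (standard error 0.067, unadjusted p = 0.0274, adjusted p = 0.176 from edgeR), so the difference did not pass the threshold. It stands for a fold change of 1.14, with an interval from 1.02 to 1.28.

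Cers2 had the largest fitted difference of the 10 genes. It encodes the ceramide synthase that joins very long fatty acids to the sphingoid base, and mice without it lose myelin. Cers2 had 61.4 and 61.5 CPM in Lenti-GFP, and 92.7 and 72.5 CPM in Lenti-AS. The Lenti-GFP libraries were nearly equal and both Lenti-AS libraries lay above them, with Lenti-AS 1 far above Lenti-AS 2. The group values were 61.5 ± 0.113 CPM (SD, n = 2) and 82.6 ± 14.3 CPM (SD, n = 2), a log2 fold change of 0.43 (standard error 0.12, unadjusted p = 0.0122, adjusted p = 0.126 from edgeR). The fold change was 1.34 with an interval from 1.10 to 1.65. The call depended on the tool and on the samples kept. The Wald test of DESeq2 gave nearly the same log2 fold change of 0.43 with an adjusted p = 0.00896. The 7 other tests, scalings, filters and designs gave adjusted p-values from 0.111 to 0.167, so none of them called Cers2. Without Lenti-AS 2 the log2 fold change was 0.59, and without Lenti-AS 1 it was 0.24, under 1.3-fold.

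The promoter of Cers2 is shown because this gene had the largest fitted difference. The 250 bases before its annotated start (chr2:185579261-185579510, plus strand, RefSeq on GRCr8, 77.2% G and C) hold none of the EGR motifs described below.
Cers2: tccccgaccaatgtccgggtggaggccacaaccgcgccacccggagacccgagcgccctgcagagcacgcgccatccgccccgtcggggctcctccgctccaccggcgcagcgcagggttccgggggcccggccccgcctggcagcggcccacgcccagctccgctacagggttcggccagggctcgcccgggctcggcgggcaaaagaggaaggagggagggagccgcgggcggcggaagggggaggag

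Among the ceramide synthase genes, the share of counts on Cers2 was higher in both Lenti-AS libraries. Counts on Cers2 made up 15.2% and 15.3% of all ceramide synthase counts in Lenti-GFP, and 22.7% and 17.9% in Lenti-AS. This share needs no scaling of the libraries, and the difference between the group means was 5.08 percentage points (exact two-sided permutation test, p = 0.333, which is the smallest p that 2 against 2 libraries allow; adjusted p = 0.556 over 5 such shares). The share of Cers5, which prefers shorter fatty acids, was 51.9% and 51.1% in Lenti-GFP and 47.3% and 48.7% in Lenti-AS. Cers4 took 32.9% and 33.6% in Lenti-GFP and 30.02% and 33.3% in Lenti-AS. In CPM, Cers5 and Cers4 had log2 fold changes of -0.091 and -0.059 (adjusted p = 0.348 and 0.634 from edgeR). Cers3 had between 4 and 13 counts per library and Cers1 had 0 in all of them. Cers6 has no row among those analysed here. The share of Cers2 was 2.68 points higher without Lenti-AS 1 and 7.47 points higher without Lenti-AS 2.

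**Figure D2:**
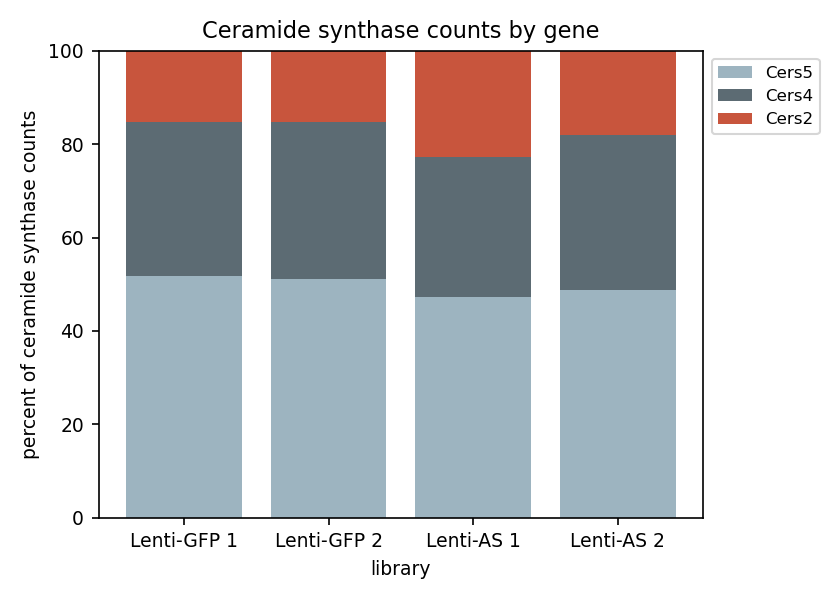
Share of ceramide synthase counts on Cers5, Cers4 and Cers2 in each library, in percent, as stacked bars. Cers3, at 0.0341% or less, is left undrawn. The part for Cers2 is larger in Lenti-AS 1 (22.7%) and Lenti-AS 2 (17.9%) than in the Lenti-GFP libraries (15.2% and 15.3%).

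Fa2h, at the lowest depth of the 10 genes, was higher in Lenti-AS 1 alone. It encodes the fatty acid 2-hydroxylase that makes the hydroxylated fatty acids of myelin galactolipids. Fa2h had 397 and 411 counts in Lenti-GFP and 652 and 303 counts in Lenti-AS, which are 4.25 and 4.34 CPM against 7.44 and 4.03 CPM. Lenti-AS 2 lay below both Lenti-GFP libraries, so the groups overlapped. The log2 fold change was 0.42 with a standard error of 0.29 (adjusted p = 0.430 from edgeR), and the interval of the fold change ran from 0.822 to 2.18. Without Lenti-AS 2 the log2 fold change was 0.79 (adjusted p = 0.000175 from edgeR), a fit in which the single Lenti-AS library is assumed to vary like the Lenti-GFP libraries. Without Lenti-AS 1 it was -0.092 (adjusted p = 0.772 from edgeR).

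The difference between the Lenti-AS libraries in Fa2h went beyond that of 97.7% of the 10251 genes whose mean reached 1 CPM, and that in Cers2 beyond 88.4%. The SC transcription factor gene Sox10 differed in the same direction, with 163 CPM in Lenti-AS 1 and 61.2 CPM in Lenti-AS 2, against 77.1 and 72.6 CPM in Lenti-GFP. Col1a1 had 2131 and 290 CPM in the Lenti-AS libraries and 841 and 721 CPM in Lenti-GFP. The part that these differences between libraries play in the values of Fa2h and Cers2 was not tested.

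**Figure D3:**
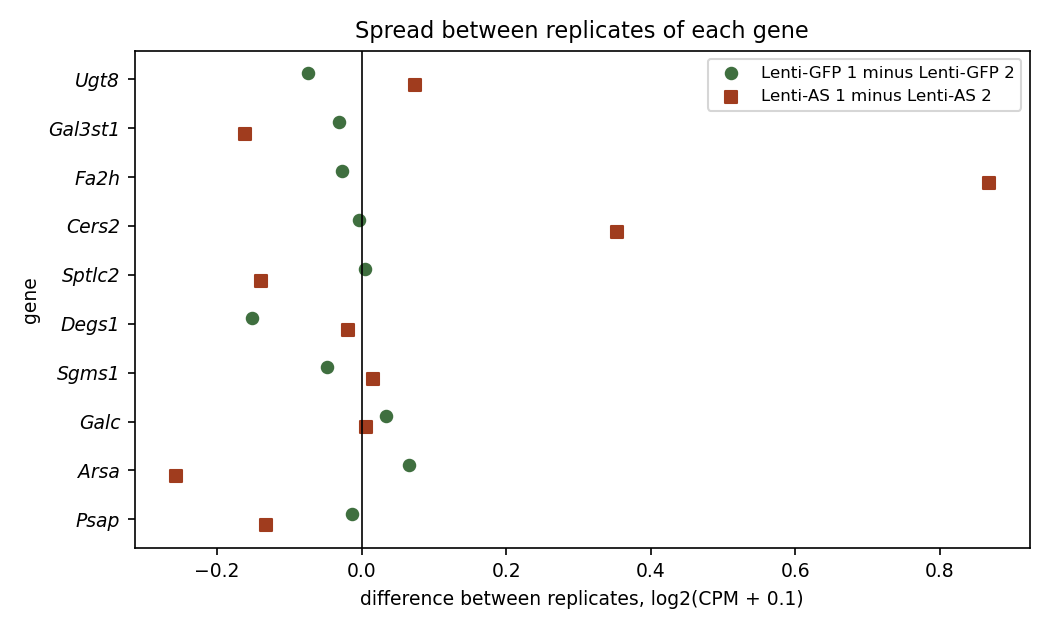
Difference between replicates of each of the 10 genes, replicate 1 minus replicate 2, on the log2(CPM + 0.1) scale. Circles are the Lenti-GFP libraries and squares the Lenti-AS libraries. The Lenti-AS differences of Fa2h (0.87) and Cers2 (0.35) lie farthest from 0.

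The genes of the enzymes that add galactose and sulfate to ceramide did not pass the adjusted threshold. Ugt8 encodes the ceramide galactosyltransferase that makes galactosylceramide. Its levels were 443 and 466 CPM in Lenti-GFP and 434 and 412 CPM in Lenti-AS. Both Lenti-AS libraries were lower, with 8.85 CPM between the nearest libraries of the groups, while the Lenti-GFP libraries were 23.3 CPM apart. The log2 fold change was -0.10 (standard error 0.058, adjusted p = 0.347 from edgeR), and the interval of the fold change ran from 0.844 to 1.03. Gal3st1 encodes the sulfotransferase that turns galactosylceramide into sulfatide. It had 107 and 109 CPM in Lenti-GFP and 103 and 115 CPM in Lenti-AS. The Lenti-AS libraries lay on either side of the Lenti-GFP libraries, with a fold change of 1.01 and an interval from 0.894 to 1.14 (adjusted p = 0.926 from edgeR).

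Ugt8 and Gal3st1 act one after the other, and their promoters are shown because both hold a match to the motif of the EGR factors, the family of Egr2. In each, capitals mark the match, which starts 156 bases before the annotated start of Ugt8 and 223 bases before that of Gal3st1. The windows are the 250 bases before the starts (chr2:217007168-217007417, minus strand, and chr14:83094135-83094384, plus strand, RefSeq on GRCr8).
Ugt8: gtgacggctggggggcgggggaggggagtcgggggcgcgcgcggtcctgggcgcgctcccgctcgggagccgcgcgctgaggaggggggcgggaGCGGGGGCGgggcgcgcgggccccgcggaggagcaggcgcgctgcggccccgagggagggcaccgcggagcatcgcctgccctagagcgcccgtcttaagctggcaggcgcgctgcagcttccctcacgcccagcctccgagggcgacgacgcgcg
Gal3st1: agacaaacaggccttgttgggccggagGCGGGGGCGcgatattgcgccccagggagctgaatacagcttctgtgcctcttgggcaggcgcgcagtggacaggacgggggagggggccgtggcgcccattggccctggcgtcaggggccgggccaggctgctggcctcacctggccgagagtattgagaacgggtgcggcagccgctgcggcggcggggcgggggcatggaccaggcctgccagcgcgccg

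The EGR motif was searched as GCGGGGGCG or GCGTGGGCG on both strands. Windows were at hand for 8 of the 10 genes, without Arsa and Psap, and Ugt8 and Gal3st1 were the ones with a match. Of 33469 windows of the same length, 2.85% hold one. A match describes letters in a sequence with 81.2% G and C in Ugt8 and 72.4% in Gal3st1, and binding was not measured here. Neither gene passed the test in Lenti-AS.

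The branches of ceramide use kept similar shares of counts. Ugcg makes glucosylceramide from the same ceramide that Ugt8 uses, and Ugt8 took 94.7% and 94.2% of the counts of this pair in Lenti-GFP and 94.8% and 94.8% in Lenti-AS. Both Lenti-AS shares lay above both Lenti-GFP shares, and the difference between the means was 0.324 points (exact two-sided permutation test, p = 0.333, adjusted p = 0.556). That is the smallest p that 2 against 2 libraries allow, so the test cannot show whether the shares are alike. The difference was 0.0768 points without Lenti-GFP 2 and 0.571 points without Lenti-GFP 1. Ugcg had 24.6 and 28.5 CPM in Lenti-GFP and 23.9 and 22.4 CPM in Lenti-AS (log2 fold change -0.20, adjusted p = 0.273 from edgeR). Sgms1 encodes the sphingomyelin synthase of the Golgi. Its levels were 176 and 182 CPM in Lenti-GFP and 184 and 182 CPM in Lenti-AS. The groups overlapped, and the fold change of 1.02 had the narrowest interval of the 10 genes, from 0.932 to 1.11 (adjusted p = 0.802 from edgeR). Of the counts on Sgms1 and Sgms2 together, Sgms1 held between 99.3% and 99.5% in every library. Sptlc2 held at least 99.9% of the counts it shares with Sptlc3, and Degs1 at least 99.9% of those it shares with Degs2. The exact permutation p-values of these 3 shares were 0.333, 0.667 and 1, and their adjusted values 0.556, 0.833 and 1.

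The breakdown genes showed no difference that passed the test. Galc encodes galactosylceramidase, which removes galactose from galactosylceramide. It had 70.3 and 68.6 CPM in Lenti-GFP and 73.9 and 73.5 CPM in Lenti-AS. Both Lenti-AS libraries were higher, by 3.26 CPM between the nearest libraries, and the log2 fold change was 0.086 (standard error 0.063, adjusted p = 0.462 from edgeR). The interval of the fold change ran from 0.953 to 1.18. Arsa encodes arylsulfatase A, which removes the sulfate from sulfatide. Its levels were 55.2 and 52.8 CPM in Lenti-GFP and 51.3 and 61.4 CPM in Lenti-AS. The Lenti-AS libraries lay on either side of both Lenti-GFP libraries, with a fold change of 1.04 and an interval from 0.879 to 1.24 (adjusted p = 0.759 from edgeR).

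The promoter of Galc is shown as that of a lysosomal enzyme with the core of the CLEAR motif, the site of the lysosomal regulator TFEB, which is TCACGTGA and reads the same on both strands. The match, in capitals, starts 21 bases before the annotated start (chr6:123245560-123245809, minus strand, RefSeq on GRCr8), and 0.657% of the 33469 windows hold one. Of the 8 genes with a window, Galc was the one with a match. The search covered 4 motifs in all. SOX letters (ACAAAG or ACAATG, in 25.3% of windows) were in that of Galc, and CCAAT (in 11385 windows) in those of Gal3st1, Fa2h, Cers2 and Sptlc2.
Galc: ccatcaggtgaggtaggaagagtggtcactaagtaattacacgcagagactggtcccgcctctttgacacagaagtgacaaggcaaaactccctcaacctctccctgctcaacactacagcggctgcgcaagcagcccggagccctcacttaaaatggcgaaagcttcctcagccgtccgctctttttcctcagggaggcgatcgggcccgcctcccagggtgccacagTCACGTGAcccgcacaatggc

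Psap encodes prosaposin, the precursor of the saposins that present sphingolipids to the enzymes of the lysosome. It had the most counts of the 10 genes, between 313534 and 401746 per library. Its levels were 4198 and 4239 CPM in Lenti-GFP and 3806 and 4171 CPM in Lenti-AS. Both Lenti-AS libraries were lower, by 27.0 CPM between the nearest libraries against 365 CPM between the Lenti-AS libraries. The log2 fold change was -0.081 (standard error 0.065, adjusted p = 0.502 from edgeR), and the interval of the fold change ran from 0.847 to 1.06. The log2 fold change was -0.017 without Lenti-AS 1 and -0.15 without Lenti-AS 2.

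Summed over the 7 synthesis genes, the level was 1064 and 1111 CPM in Lenti-GFP and 1111 and 1090 CPM in Lenti-AS. Summed over the 3 breakdown genes, most of it Psap, it was 4323 and 4360 CPM in Lenti-GFP and 3931 and 4306 CPM in Lenti-AS. With this scaling the sums of the synthesis genes overlapped between the groups and those of the breakdown genes did not. With library totals in its place it was the other way round, with 1056 and 1094 against 1118 and 1107 CPM for synthesis, and 4291 and 4296 against 3956 and 4373 CPM for breakdown.

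**Figure D4:**
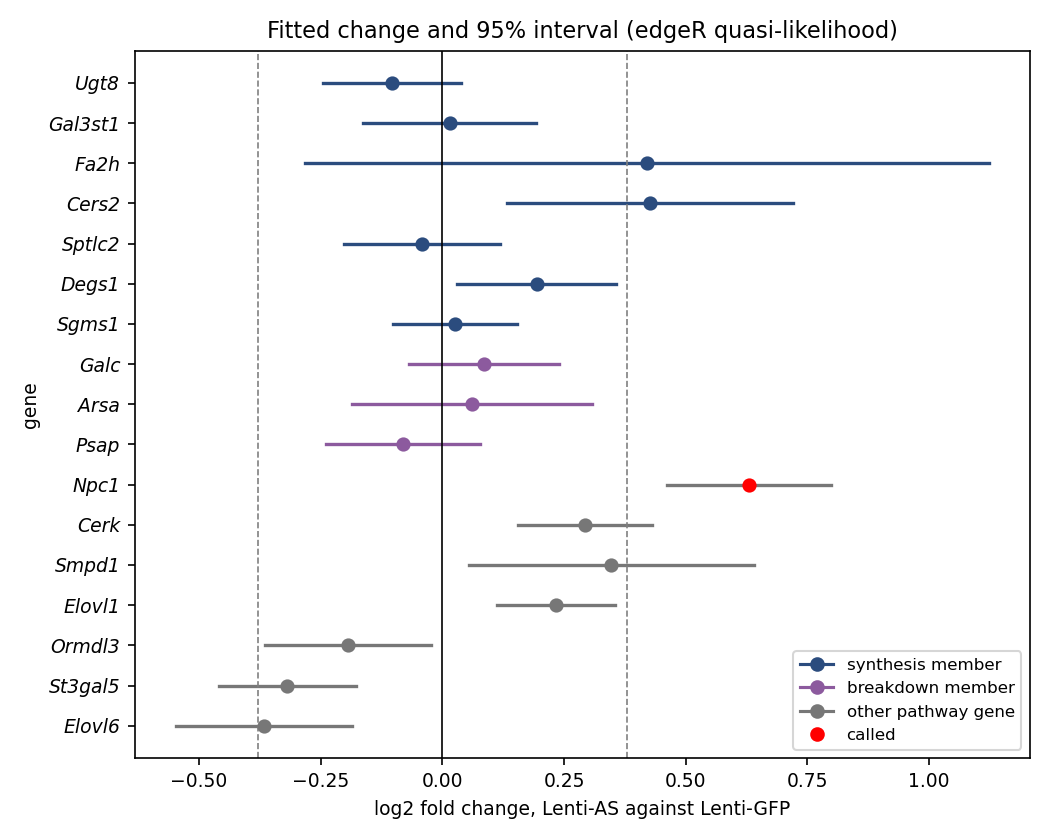
Fitted log2 fold change of Lenti-AS against Lenti-GFP (points) with its 95% interval (lines) from edgeR's quasi-likelihood test, for the 10 genes and 7 other genes of the pathway. Dashed lines mark a 1.3-fold difference. The red point, Npc1, is the gene that was called, and of the 10 genes the intervals of Fa2h and Cers2 reach past the dashed line.

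The rest of the pathway was read from 6 lists of 70 genes chosen by role, of which 66 have a row and 57 were tested. Of these, 1 was called, Npc1, and none was called lower, where 1.98% of all genes tested were called. At an unadjusted p under 0.05, 15 of the 57 passed, 12 higher and 3 lower, or 26.3% against 21.8% of all genes tested. The median log2 fold change over the 57 was 0.038.

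Npc1 rose in Lenti-AS. It encodes a protein of the lysosomal membrane that exports cholesterol, and its loss leads to storage of cholesterol and sphingolipids. Npc1 had 48.7 and 50.4 CPM in Lenti-GFP and 78.1 and 75.2 CPM in Lenti-AS. The groups were far apart and the replicates close together, with a log2 fold change of 0.63 (standard error 0.069, adjusted p = 0.0237 from edgeR) and a fold change of 1.55. The adjusted p was 0.0697 with a replicate block, and 0.316 and 0.293 without Lenti-GFP 1 and Lenti-GFP 2, fits that each left 1 gene called of all genes tested.

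Of the 14 lysosomal genes tested, 12 were fitted higher in Lenti-AS and 2 lower, and their median log2 difference was 0.14. The list leaves out the breakdown genes Galc, Arsa and Psap, with log2 fold changes of 0.086, 0.061 and -0.081. Over all genes tested, 6385 were fitted higher and 6061 lower. At an unadjusted p under 0.05, 5 of the 14 passed, all higher, or 35.7%. The share over all genes tested was 21.8%, made up of 12.5% higher and 9.37% lower. Besides Npc1 the 5 include Gm2a, Sort1 and Hexa, which are named because their values had been seen. Hexa encodes a subunit of a lysosomal hexosaminidase, Gm2a encodes the activator that presents gangliosides to it, and Sort1 encodes a receptor that carries prosaposin to the lysosome. Their log2 fold changes were 0.26 for Gm2a, 0.18 for Sort1 and 0.16 for Hexa, with adjusted p-values from 0.121 to 0.177 from edgeR. Macrophages are rich in lysosomal enzymes, and 7 of 9 macrophage markers lay under 1 CPM in every library, with a sum of 3.31 and 3.36 CPM in Lenti-GFP and 3.95 and 4.34 CPM in Lenti-AS. The 2 macrophage markers with enough counts to test were both higher in Lenti-AS. Cd68, itself a lysosomal protein, had 1.29 and 1.18 CPM in Lenti-GFP and 1.84 and 1.80 CPM in Lenti-AS (log2 fold change 0.56, unadjusted p = 0.0336, adjusted p = 0.194 from edgeR). Csf1r had 1.87 and 1.92 CPM against 1.94 and 2.27 CPM (adjusted p = 0.686 from edgeR). Ptprc and Aif1, which define leukocytes and macrophages, had at most 0.120 and 0.0342 CPM. The part of such cells in the lysosomal values was not tested.

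In the other lists no gene was called. The list of ceramide assembly leaves out Sptlc2, Cers2 and Degs1. Its 10 tested genes had log2 differences from -0.71 to -0.0049 with a median of -0.087. The value of -0.71 belongs to Cers3, with 4 to 13 counts per library, and the next lowest was -0.19. Cers2 and Degs1, which act in the same steps, were fitted higher, as described above. The smallest p on the list belonged to Ormdl3, a brake on serine palmitoyltransferase. Ormdl3 had 56.4 and 57.7 CPM in Lenti-GFP and 48.4 and 51.3 CPM in Lenti-AS (log2 fold change -0.19, adjusted p = 0.190 from edgeR). Of the 10 tested genes that supply long fatty acids, 6 were fitted higher and 4 lower. Elovl6, which elongates palmitate, had 34.1 and 35.4 CPM in Lenti-GFP and 25.7 and 28.2 CPM in Lenti-AS (log2 fold change -0.37, adjusted p = 0.0710 from edgeR). Elovl1, which makes the very long fatty acids that the Cers2 enzyme uses and is named because its values had been seen, had 193 and 190 CPM in Lenti-GFP and 225 and 225 CPM in Lenti-AS (log2 fold change 0.23, adjusted p = 0.0797 from edgeR). The groups of both genes were apart, but neither passed the adjusted threshold in this test. With DESeq2 the adjusted p was 0.00431 for Elovl6 and 0.00312 for Elovl1.

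Among 6 genes of sphingomyelin turnover the smallest p belonged to Smpd1, the acid sphingomyelinase, with 43.7 and 43.3 CPM in Lenti-GFP and 62.0 and 48.7 CPM in Lenti-AS (log2 fold change 0.35, adjusted p = 0.176 from edgeR). As for Cers2, Lenti-AS 1 was the higher of the Lenti-AS libraries. Without Lenti-AS 1 the log2 fold change of Smpd1 was 0.16, and without Lenti-AS 2 it was 0.51. Among 10 tested genes of glucosylceramide and ganglioside synthesis it was St3gal5, the synthase of the ganglioside GM3. St3gal5 had 124 and 127 CPM in Lenti-GFP and 98.3 and 103 CPM in Lenti-AS, with no overlap (log2 fold change -0.32, adjusted p = 0.0568 from edgeR). Among 7 tested genes of ceramidases and sphingosine phosphate metabolism it was Cerk, the ceramide kinase, with 623 and 652 CPM in Lenti-GFP and 762 and 799 CPM in Lenti-AS (log2 fold change 0.29, adjusted p = 0.0637 from edgeR). With DESeq2 the adjusted p was 0.000226 for St3gal5 and 0.000327 for Cerk, but these, like Elovl6 and Elovl1, changed less than 1.3-fold.

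**Figure D5:**
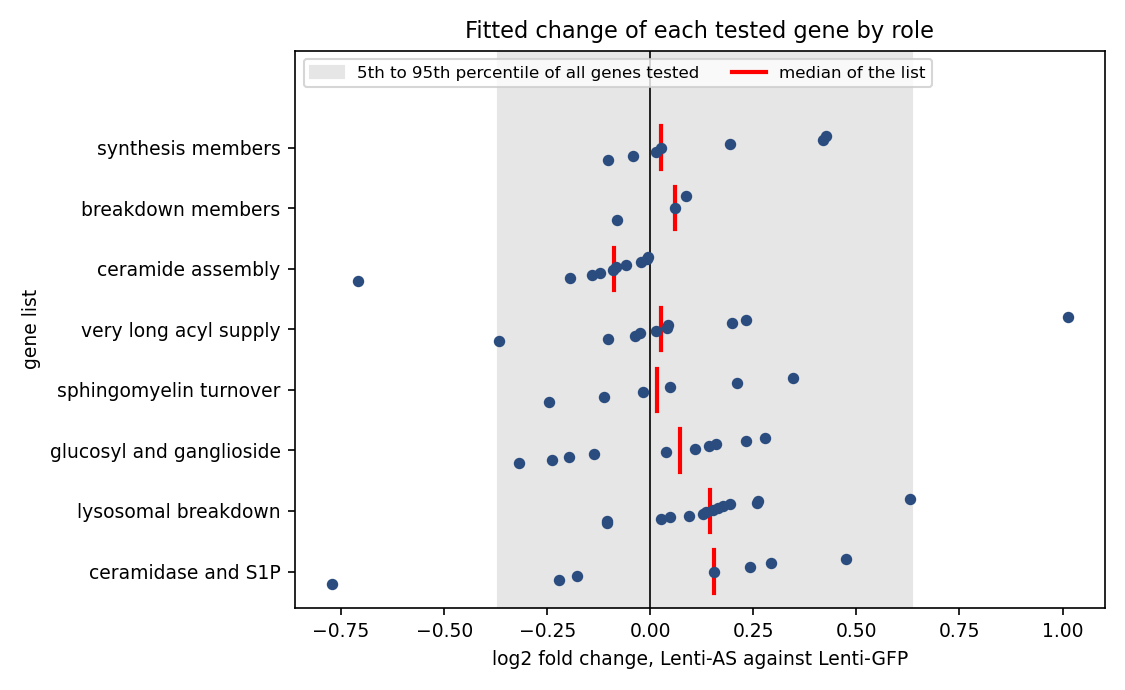
Fitted log2 fold change of every tested gene by role. Each point is a gene, the red bar is the median of its list, and the grey band spans the 5th to 95th percentile of all genes tested (-0.37 to 0.63). The medians of the lists lie between -0.087 and 0.15.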

How the data were processed

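RNA-seq of 4 libraries, 2 Lenti-GFP and 2 Lenti-AS, was read as 50 bp pairs. The authors counted reads per gene on rn6 with featureCounts over RefSeq exons and deposited raw counts with no normalization. The aligner is hisat2 in the study's methods and GSNAP in the submitters' processing notes. Tool versions, strand and multi-mapping options are not given in the sources used here. The table holds 17949 genes after 1 repeated header row was dropped.

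The 12446 genes that reached 10 counts in 2 or more samples entered edgeR 4.0.16 in R 4.3.3 (TMM factors, glmQLFit with default settings, glmQLFTest, no replicate term), with Benjamini-Hochberg adjustment over all of them. Calls needed an adjusted p under 0.05 with a change of 1.3-fold or more, the cut-offs of the study. The biological coefficient of variation was 12.1%. CPM uses TMM-scaled library sizes. Standard errors come from the F statistic, and 95% intervals from the t distribution with the test's degrees of freedom and no adjustment for the number of genes. Alternatives were DESeq2 1.42.0, limma-voom (limma 3.58.1), the newer quasi-likelihood fit, 2 other scalings, 2 other filters, no fold cut-off, a replicate block, and leaving out each sample. Replicates differed by more than sampling noise (chi-square per gene of 26.0 in Lenti-GFP and 83.1 in Lenti-AS, where 1 is expected).

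The 10 genes, the lists of other pathway genes and of cell type markers, and the tests were chosen with earlier results of these data known. The genes named are the 10, any list gene called or with an adjusted p under 0.05, the gene with the smallest p in each of the 6 lists, the partners in enzyme families and Egr2. Cell type markers given with values, and other genes said to be so, were named after their values were seen. Of the other marker lists, sums per library were 2821 to 4679 CPM for fibroblasts (3 of 8 under 1 CPM throughout), 15.6 to 21.0 CPM for endothelium (5 of 6), 191 to 238 CPM for perineurium (2 of 4) and 149 to 201 CPM for neurons (3 of 5), and Nefl was the marker called (lower). Values of some list genes are not reported here. Promoter windows are from RefSeq on GRCr8, which is not the build of the counts. The motifs and the promoters to show were chosen after the values were seen. Effects of gene length or base composition on the counts were not examined.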

Additional observations from a re-analysis of the deposited data

How the results depend on the processing

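Of the 80 fold changes of the 10 genes under 8 alternatives (tests, scalings, filters and the block), all kept their direction, and of the 40 with a sample left out, 36 did. With all samples, the 10 genes held 0 called higher with edgeR and 1 with DESeq2 (Cers2). Of all 12446 genes tested, 163 were called higher with edgeR and 488 with DESeq2. Without Lenti-AS 2 the log2 fold changes of Fa2h and Cers2 were 0.79 and 0.59, past the 1.3-fold cut-off. The calls of Fa2h and Cers2 changed in that fit, which rests on a single Lenti-AS library. The count called lower was 0 in edgeR, DESeq2 and every other alternative run. At an unadjusted p under 0.05, 0 of the 10 genes were lower in edgeR with all samples. Without Lenti-AS 1, Ugt8 had a log2 fold change of -0.14 (unadjusted p = 0.0329, adjusted p = 0.115 from edgeR). Of the other pathway genes, 1 was called higher, 0 with a replicate block and 0 to 4 with a sample left out, and 0 lower, or 0 to 1 with a sample left out.

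Over all genes 246 were called, 627 with DESeq2 (77.8% of them higher, against 66.3%), 17 with the replicate block, and 1 to 1515 with a sample left out. Leaving out either Lenti-GFP library left 1 call, so those fits say little about single genes. The samples share a replicate number and no stated culture, and the replicate differences of the groups had a correlation of -0.0094 over genes. The block changed no call among the 10 genes.

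With a sample left out, the log2 fold change ranged from -0.092 to 0.79 for Fa2h, -0.11 to 0.026 for Sptlc2, -0.068 to 0.093 for Gal3st1, -0.074 to 0.18 for Arsa and -0.13 to 0.0091 for Cers4. The share of Sptlc2 in its pair differed by -0.026 points, or -0.053 to 0.00065 with a sample left out, and that of Degs1 by 0.012 points, or -0.021 to 0.045. With library totals, the summed breakdown genes were lower by a mean of -129 CPM in place of -223 CPM, and the summed synthesis genes higher by 37.2 CPM in place of 13.03 CPM. The median log2 difference of all genes was then 0.039. The causes were not tested.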

Other observations

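Some other genes of the pathway, named because their values had been seen, had patterns that the lists' medians hide. Elovl7, another elongase of long fatty acids, had 0.836 and 0.791 CPM in Lenti-GFP and 1.69 and 1.596 CPM in Lenti-AS, from 75 to 148 counts per library. Its log2 fold change was 1.01 with a standard error of 0.22, and its adjusted p = 0.0817 from edgeR missed the threshold. Sphk2, a sphingosine kinase, had 9.18 and 9.50 CPM in Lenti-GFP and 16.7 and 9.23 CPM in Lenti-AS, so that, like Fa2h, it was higher in Lenti-AS 1 alone (log2 fold change 0.47, adjusted p = 0.344 from edgeR).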
